A study of Saccharomyces cerevisiae with 17 samples.

Results

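The 9 genes described here are the yeast zinc regulator gene ZAP1, the zinc transporter genes ZRT1, ZRT2 and ZRT3, the zinc-responsive membrane protein genes IZH1, IZH2 and IZH4, and the zinc-responsive genes ZPS1 and ADH4. They were chosen by name, as every probe set annotated to one of these genes, and have 13 probe sets among the 6504 that carry a single gene name, or 9 of 5656 genes. The series measured messenger RNA in the budding yeast strain CEN.PK113-7D (genotype MATa MAL2-8C SUC2), grown without oxygen in chemostats, continuous cultures fed here with glucose as the limiting nutrient at a dilution rate of 0.03 per h. It asked how far the response to a daily temperature cycle can be read off from steady states. All groups share the strain, the medium limitation and the anaerobic conditions, and no group had an altered zinc supply according to the labels. In the cycle the temperature swung between 30 and 12 °C once in 24 h along a sine curve. Samples were taken at hour 0 (30 °C), hour 6 (21 °C and falling), hour 9 (14.6 °C), hour 12 (12 °C), hour 18 (21 °C and rising) and hour 21 (27.4 °C). The steady states were constant cultures at 12 °C and at 30 °C. Each of these 8 groups had 2 arrays in the comparisons. The steady-state arrays came from independent duplicate cultures, while the 12 cycle arrays were drawn from duplicate cultures over the fifth and sixth cycle, without a label that ties an array to a culture.

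Zinc is a cofactor of many yeast enzymes and transcription factors, and cells hold its concentration within narrow limits. Zap1 is a transcription factor that is active when zinc is scarce. It raises genes for uptake at the cell surface and for release from the vacuole, the compartment that stores zinc, and it also activates its own gene. ZRT1 encodes the high-affinity and ZRT2 the low-affinity zinc uptake transporter, and ZRT3 encodes a transporter that releases zinc from the vacuole. The IZH genes encode membrane proteins of the progestin and adipoQ receptor family. ZPS1 encodes a cell wall or secreted protein that is abundant in zinc-deficient cells, and ADH4 encodes an alcohol dehydrogenase that is induced when zinc is low. In zinc-deficient yeast, Zap1 is also known to lower the transcripts of the zinc enzymes encoded by ADH1 and ADH3.

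Each array, an Affymetrix Yeast Genome S98 GeneChip, gave a signal per probe set in arbitrary linear units, scaled per array before deposit. Signals of different probe sets have different probe affinities, so levels are compared here between samples and never between genes. All 9 genes lay above background, a signal of 10.5, on each of the 16 arrays. Replicate arrays correlated at 0.956 to 0.984 across genes, and with 2 arrays in a group the array number sets the precision. Differences are on the log2 scale, each with its standard error (SE), and come from limma fitted to all 5656 genes, and a gene counts as passing with an adjusted p (Benjamini-Hochberg, over all genes) under 0.05. The a-cell genes MFA1, MFA2, STE2, STE6 and BAR1 were above background on every array, as the MATa label requires, but so were the alpha-cell genes MF(ALPHA)1, STE3 and SAG1. The fourth alpha-cell gene, MF(ALPHA)2, was under background on both arrays of the 30 °C steady state and on 1 array each at 30 and 27.4 °C in the cycle. Between the steady states MF(ALPHA)1 read 2649 and 2623 at 12 °C against 192.3 and 279.5 at 30 °C, and MF(ALPHA)2 read 25.8 and 27.7 at 12 °C against 9.3 and 8.8 at 30 °C, while STE3 (0.51) and SAG1 (-0.20) did not pass.

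More of the zinc genes passed the cold comparison in the temperature cycle than at constant temperature, but so did more of all genes. Of the 9 genes, IZH4 alone passed a test of the difference between the 2 effects itself, which 12.9% of all genes passed. At the 12 °C point of the cycle 6 of the 9 genes were higher than at its 30 °C point, namely ZAP1, ZRT1, IZH1, IZH2, IZH4 and ADH4, and none was lower. In this comparison 32.8% of all genes passed, and 16.5% of all genes passed as higher. The median difference of the 9 genes was 1.05, beside 0.046 over all genes. Between the steady states at 12 and 30 °C, 4 of the 9 genes passed, against 22.2% of all genes. ZRT1, IZH1 and IZH2 were higher at 12 °C, as were 9.97% of all genes, and IZH4 was lower, as were 12.2%. The median of the 9 genes was 0.15, beside -0.012 over all genes. The p-values rest on a spread estimated over all 8 groups, and those of the cycle treat arrays of shared cultures as independent.

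**Figure D1:**
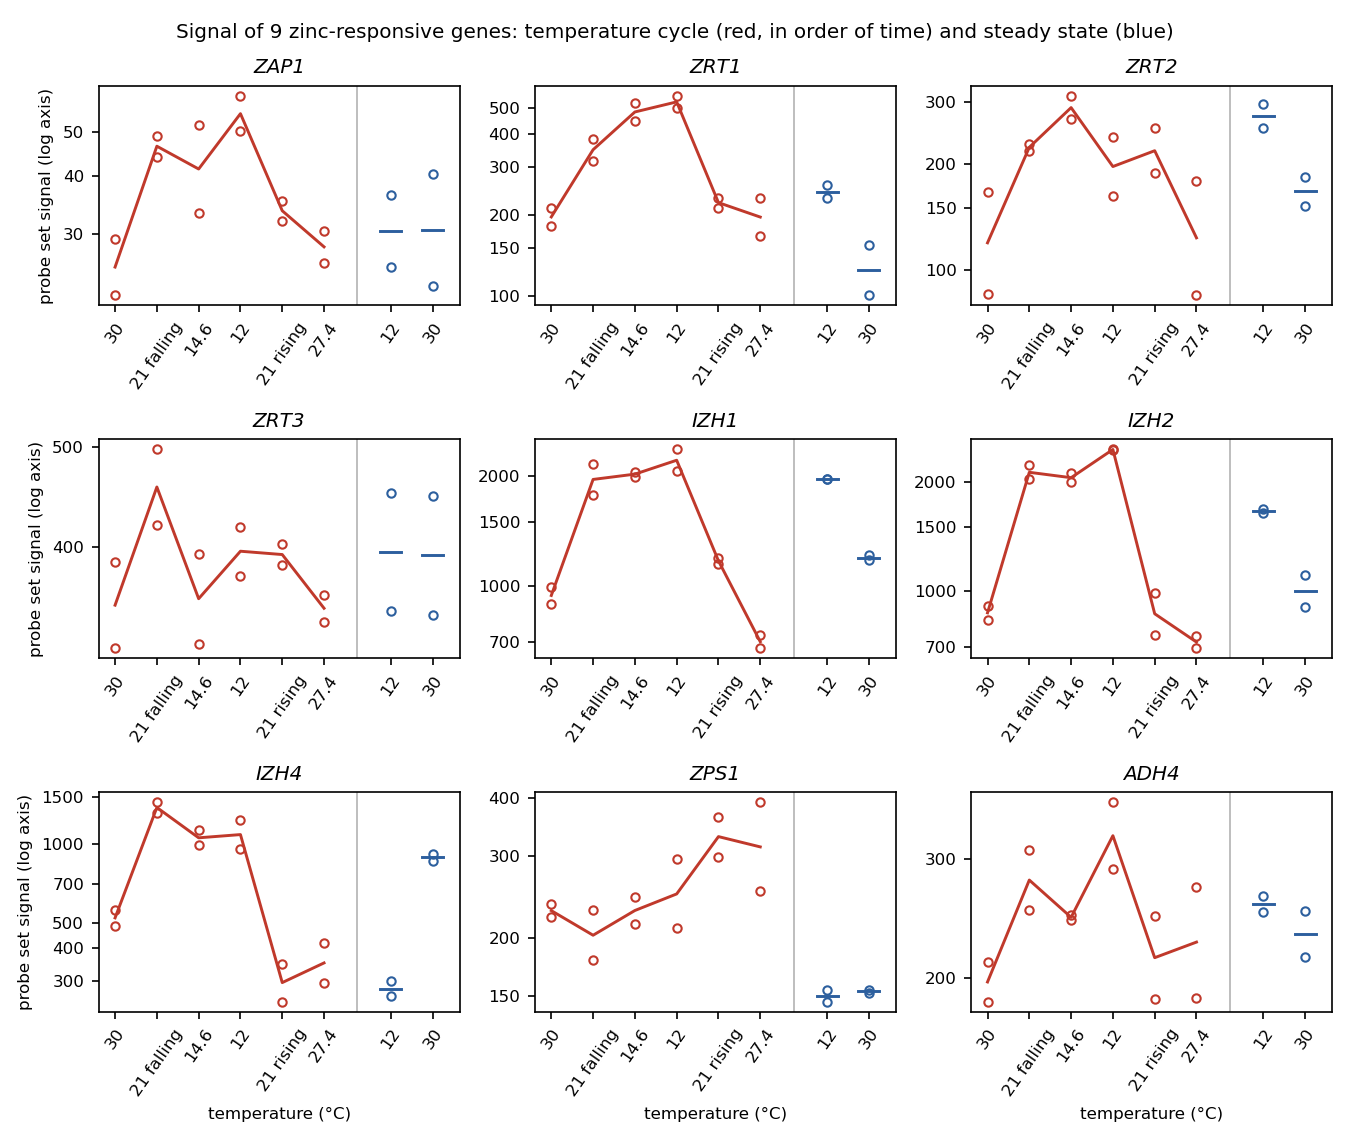
Probe set signal (arbitrary units, log axis) of the 9 zinc-responsive genes. Red circles are the 2 arrays of each cycle point in order of time and the red line joins their geometric means; blue circles are the 2 arrays of each steady state and the blue bars their geometric means. ZRT1, IZH1 and IZH2 were high in the cold points of the cycle and at the 12 °C steady state, IZH4 was low at the 12 °C steady state, and ZPS1 was lower in all 4 steady-state arrays than in the 12 cycle arrays.

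ZAP1, the gene of the regulator itself, was higher in the cold of the cycle. It read 50.2 and 60.0 at 12 °C in the cycle, against 29.2 and 22.0 at 30 °C in the cycle, so the arrays of these groups did not overlap. The difference was 1.11 ± 0.31 (SE, adjusted p = 0.0168). At steady state it read 25.3 and 36.4 at 12 °C, against 40.6 and 23.0 at 30 °C, groups that overlapped in full (-0.010 ± 0.31, 95% interval -0.69 to 0.67). The cold effect was thus 1.12 ± 0.44 larger in the cycle than at steady state, but this difference between the effects did not pass (adjusted p = 0.117). The ZAP1 call in the cycle was lost when the second 30 °C array (0.91, adjusted p = 0.105) or the second 12 °C array (0.99, adjusted p = 0.0991) was left out.

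ZRT1, the high-affinity uptake transporter, was higher in the cold in both settings. At 12 °C in the cycle it read 499.6 and 553.0, against 212.5 and 181.6 at 30 °C in the cycle. The 12 °C arrays lay far above the 30 °C arrays, a 2.68-fold difference (1.42 ± 0.25, adjusted p = 0.00103). At steady state ZRT1 read 258.1 and 230.3 at 12 °C, against 100.6 and 154.5 at 30 °C. These groups did not overlap either, and the difference was 0.97 ± 0.25 (adjusted p = 0.0163), a call that was lost without the first 12 °C array (adjusted p = 0.0923) or the first 30 °C array (adjusted p = 0.148). Whether the cold effect of ZRT1 differed between the cycle and steady state was not resolved (0.45 ± 0.35, 95% interval -0.31 to 1.21, adjusted p = 0.429).

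Over all groups the ZRT1 signal was lowest at the 30 °C steady state and highest at 12 °C in the cycle. From low to high the order was the 30 °C steady state, 27.4 and 30 °C in the cycle, 21 °C with rising temperature, the 12 °C steady state, 21 °C with falling temperature, and 14.6 and 12 °C in the cycle. The arrays overlapped between 27.4 and 30 °C in the cycle, between 27.4 °C and 21 °C with rising temperature, between 21 °C with rising temperature and the 12 °C steady state, and between 14.6 and 12 °C in the cycle. At 12 °C the cycle exceeded the steady state by 1.11 ± 0.25 (adjusted p = 0.0109), where 18.2% of all genes passed, 8.84% as higher, and ZRT1 and IZH4 were the members that did. The ZRT1 call here was lost without the second array of either group (adjusted p = 0.0531 and 0.0740). This comparison shares its cycle arrays with the cold effect in the cycle.

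ZRT1 has 4 probe sets on this array, and they did not behave alike. The values above are those of the brightest, 5258_at. Of the others, 2253_s_at followed it, with 230.3 and 78.9 at 12 °C in the cycle, against 37.0 and 54.5 at 30 °C in the cycle (1.59 ± 0.50, adjusted p = 0.0364 in a fit of all 6504 single-gene probe sets). Its 2 arrays at 12 °C lay far apart. The dim set 2252_g_at pointed the same way without passing (0.95 ± 0.44, adjusted p = 0.139). Probe set 2251_at read 174.8 and 177.9 at 12 °C in the cycle, against 126.0 and 249.6 at 30 °C in the cycle, a difference of -0.0081 ± 0.39. At steady state it read 155.4 and 150.7 at 12 °C, against 208.7 and 251.4 at 30 °C, the opposite direction to the other sets, without passing (-0.58 ± 0.39, adjusted p = 0.327). With the mean of all 4 sets as the measure of the gene, the cold effect in the cycle still passed, while the one at steady state did not (0.61, adjusted p = 0.168). The probes' positions in the gene were not used here.

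**Figure D2:**
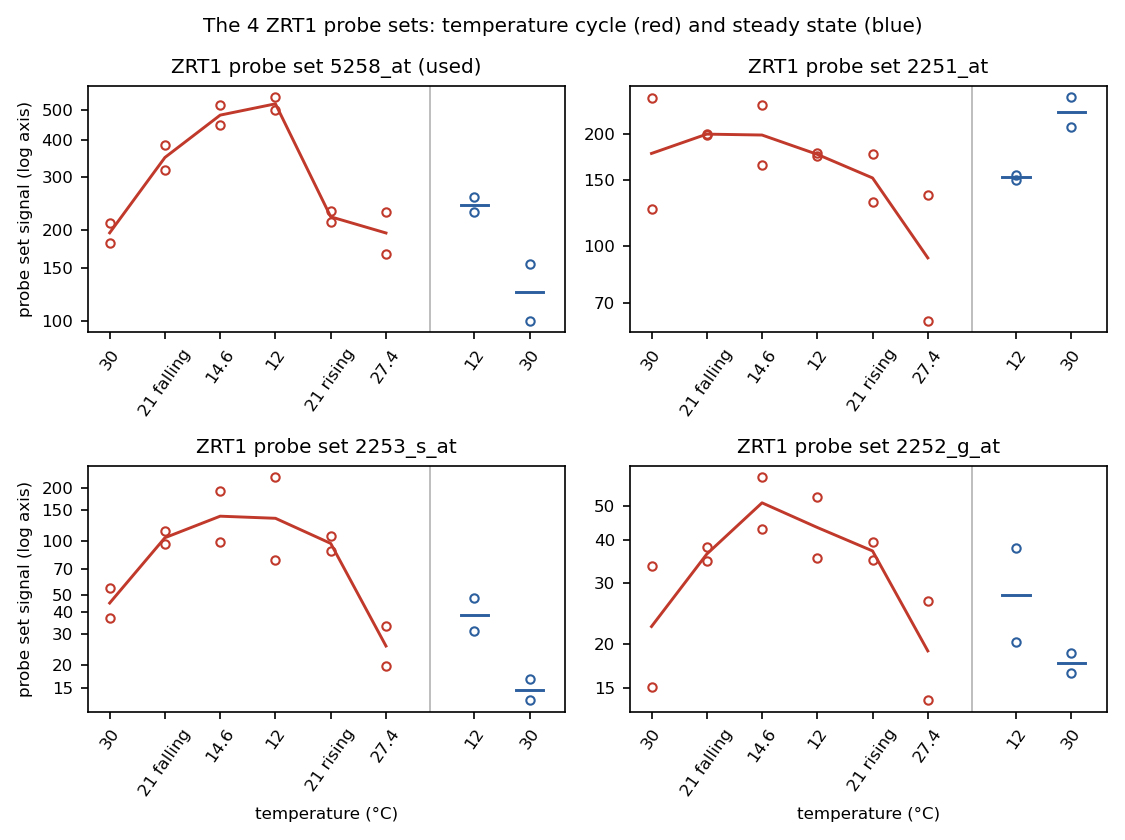
Signal (arbitrary units, log axis) of the 4 ZRT1 probe sets, with the cycle points in order of time in red (line through the geometric means) and the steady states in blue (bars at the geometric means), 2 arrays per group. The panels 5258_at, 2253_s_at and 2252_g_at are highest in the cold points of the cycle, while 2251_at reads 174.8 and 177.9 at 12 °C in the cycle, between its own arrays at 30 °C in the cycle.

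ZRT2 and ZRT3, the low-affinity uptake transporter and the vacuolar exporter, passed no comparison. ZRT2 read 162.3 and 239.3 at 12 °C in the cycle, against 85.8 and 167.2 at 30 °C in the cycle. The groups overlapped slightly, and the difference was 0.72 ± 0.38 (adjusted p = 0.168). Its steady-state arrays, at 296.8 and 253.2 at 12 °C against 152.6 and 184.6 at 30 °C, did not overlap and differed by 0.71 ± 0.38 (adjusted p = 0.199). ZRT2 had the widest spread between replicates of the 9 genes, with 179.9 and 85.1 at 27.4 °C, so differences of this size were not detectable with these arrays. ZRT3 read 418.8 and 375.6 at 12 °C in the cycle, against 319.5 and 387.3 at 30 °C in the cycle (0.17 ± 0.22, 95% interval -0.31 to 0.65). At steady state it read 347.6 and 451.9 at 12 °C, against 448.8 and 344.4 at 30 °C (0.012 ± 0.22, 95% interval -0.47 to 0.49). Over all 16 arrays ZRT3 stayed between 319.5 and 497.7.

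IZH1 and IZH2 were the most regular of the set. IZH1 read 2371.7 and 2062.3 at 12 °C in the cycle, against 890.0 and 994.1 at 30 °C in the cycle, a 2.35-fold difference with no overlap (1.23 ± 0.18, adjusted p = 0.000347). IZH2 read 2451.6 and 2460.1 at 12 °C in the cycle, against 907.1 and 832.0 at 30 °C in the cycle, a 2.83-fold difference with no overlap (1.50 ± 0.19, adjusted p = 0.000166). Both genes were also higher at the 12 °C steady state. IZH1 read 1966.1 and 1959.3 there, against 1177.7 and 1212.2 at the 30 °C steady state (0.72 ± 0.18, adjusted p = 0.0158). IZH2 read 1679.8 and 1640.3 at the 12 °C steady state, against 902.3 and 1106.3 at the 30 °C steady state (0.73 ± 0.19, adjusted p = 0.0198).

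The direction of these IZH1 and IZH2 differences held under every scaling, but the steady-state calls did not. With quantile normalization the adjusted p was 0.0864 for IZH1 (0.44) and 0.0696 for IZH2 (0.50). The IZH1 call was also lost without any 1 of the 4 steady-state arrays (adjusted p 0.0507 to 0.0812), and that of IZH2 without either 12 °C array (0.0852 and 0.0574) or the first 30 °C array (0.143). The larger cold effect of IZH2 in the cycle (difference of the effects 0.77 ± 0.28) did not pass, with an adjusted p of 0.0910. Under quantile normalization and with a floor of 12 on the signal it did pass.

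IZH4 did the opposite at steady state of what it did in the cycle. In the cycle it read 952.0 and 1231.7 at 12 °C, against 561.7 and 484.9 at 30 °C, and was 2.07-fold higher (1.05 ± 0.24, adjusted p = 0.00563). At steady state it read 262.4 and 300.7 at 12 °C, against 862.3 and 915.9 at 30 °C, so that it fell by 1.66 on the log2 scale (SE 0.24, adjusted p = 0.000699), to a level 3.16-fold lower. Neither pair of groups overlapped. The IZH4 call in the cycle was lost without the second 12 °C array (0.87, adjusted p = 0.0552) and with only these groups in the fit (adjusted p = 0.0658). The difference between the cold effects was 2.71 ± 0.34 (adjusted p = 0.000837), in a test passed by 12.9% of all genes (6.56% with a positive difference) and by no other member. This call was kept under all 21 alternatives run, with values of 2.53 to 2.90 and adjusted p of 0.000125 to 0.0158.

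At 12 °C IZH4 was 3.85-fold higher in the cycle than at steady state (1.95 ± 0.24, adjusted p = 0.000635). At 30 °C the cycle arrays lay below the steady-state arrays without overlap (-0.77 ± 0.24), but the comparison did not pass (adjusted p = 0.187). From low to high its groups ran from the 12 °C steady state over 21 °C with rising temperature, 27.4 and 30 °C in the cycle, the 30 °C steady state, 14.6 and 12 °C in the cycle to 21 °C with falling temperature. The first 3 of these overlapped in their arrays, as did 14.6 and 12 °C. At 30 °C no member passed between cycle and steady state, where 1.20% of all genes did. In this limma comparison the unadjusted p was under 0.05 for 3 members, ZRT1 (0.66 ± 0.25), ZPS1 (0.58 ± 0.25) and IZH4.

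**Figure D3:**
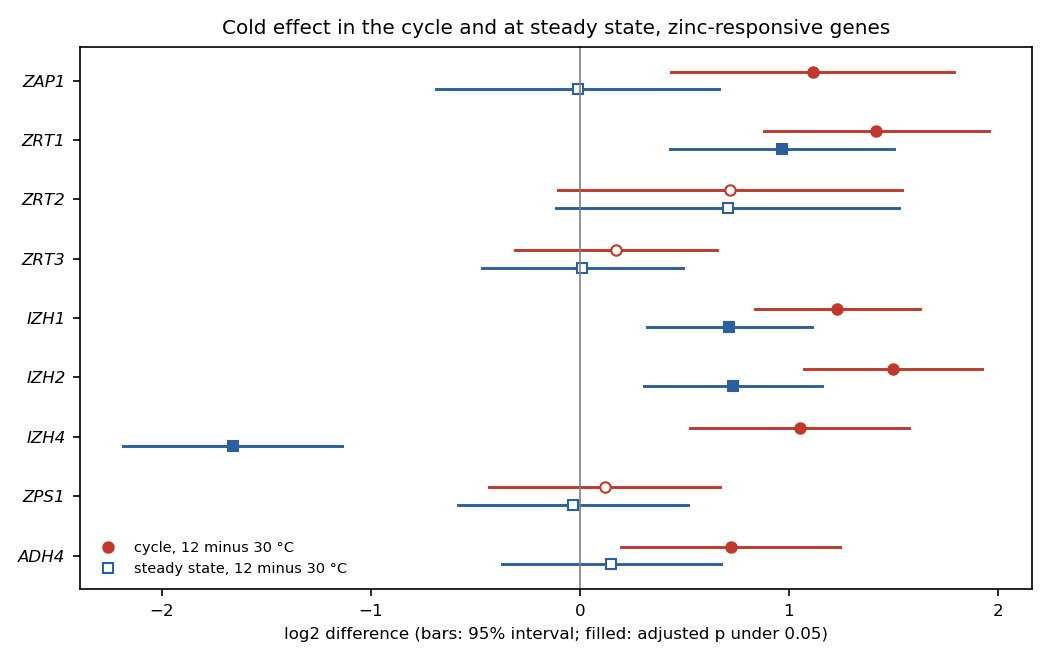
Log2 difference between 12 and 30 °C for the 9 zinc-responsive genes, in the cycle (red circles) and between steady states (blue squares), with 95% intervals from the limma model of 16 arrays and 2 arrays per group; filled symbols passed at an adjusted p under 0.05. IZH4 lies at 1.05 in the cycle and at -1.66 at steady state, while ZRT1, IZH1 and IZH2 lie above 0 in both.

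ZPS1 passed neither cold comparison. At 12 °C in the cycle it read 209.8 and 295.6, against 222.0 and 236.7 at 30 °C in the cycle (0.12 ± 0.25, 95% interval -0.43 to 0.67). At steady state it read 145.9 and 154.7 at 12 °C, against 152.5 and 154.8 at 30 °C (-0.032 ± 0.25, 95% interval -0.58 to 0.52). Its arrays separated by culture regime instead. Its 12 cycle arrays, at 179.4 to 392.3, all lay above its 4 steady-state arrays, at 145.9 to 154.8. Of all 5656 genes, 3 (0.0530%) had every cycle array above every steady-state array, ZPS1, AAD6 and SNR35, and the signals of AAD6 and SNR35 were at most 26.1, near background. This separation was counted after the ZPS1 values had been seen. The share that arrays in random order would give was not computed, so the count is a description and no test.

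The comparison of the mean of the 6 cycle points with the mean of both steady states was added after the ZPS1 values had been seen, so its result is a description of these arrays. On that scale ZPS1 was 0.75 ± 0.15 higher in the cycle (adjusted p = 0.0293) and ZRT1 was 0.79 ± 0.14 higher (adjusted p = 0.0195), where 1.56% of all genes passed and 0.990% as higher. The other 7 members lay between -0.21 and 0.41 and did not pass. The ZPS1 value was 0.72 to 0.75 without the first 12 °C array, either 30 °C array of the steady states, or the second array at 21 °C of either direction, and its adjusted p was then 0.0557 to 0.140. The ZRT1 call was lost without the first array of either steady state (adjusted p = 0.0746 and 0.117) and with the mean of its probe sets (0.72, adjusted p = 0.0719). AAD6 and SNR35 were named after their values had been seen.

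ADH4 read 289.9 and 364.0 at 12 °C in the cycle, against 210.7 and 184.2 at 30 °C in the cycle, groups that did not overlap (0.72 ± 0.24, adjusted p = 0.0375). At steady state it read 250.4 and 264.4 at 12 °C, against 251.1 and 214.2 at 30 °C (0.15 ± 0.24, adjusted p = 0.704). The ADH4 call in the cycle was lost with each array centred on its median (0.67, adjusted p = 0.0535), with array weights (adjusted p = 0.0971), without either 30 °C array (adjusted p = 0.0606 and 0.156) and without the second 12 °C array (0.56, adjusted p = 0.208). A second ADH4 probe set, 2247_at, read 0.6 to 8.3 on the 16 arrays, all under background, and gives no level. In the R64 reference ADH4 and ZRT1 are neighbouring protein-coding genes on chromosome VII, with the non-coding gene SUT532 listed between them.

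Within the cycle the steps that any member passed were the first fall of the temperature, from hour 0 to hour 6, and those of its rise from hour 12 to hour 21. The steps to 14.6 °C (hour 6 to 9) and to 12 °C (hour 9 to 12) were shorter than the first and spanned fewer degrees. From 30 °C to 21 °C with falling temperature IZH1 (1.06 ± 0.18, adjusted p = 0.00413), IZH2 (1.29 ± 0.19, adjusted p = 0.00223) and IZH4 (1.40 ± 0.24, adjusted p = 0.00424) rose. In this step 11.2% of all genes passed, 5.22% as higher. These calls of IZH1, IZH2 and IZH4 were lost in a limma fit of only the groups compared (adjusted p = 0.118, 0.0933 and 0.0925), which 1 of all genes passed. ZRT1 narrowly missed the threshold in this step (0.83 ± 0.25, adjusted p = 0.0505). In the steps to 14.6 °C and on to 12 °C no member passed the limma test or had an unadjusted p under 0.05, where 0.690% and 0.796% of all genes passed.

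As the temperature rose again to 21 °C, ZRT1 fell by 1.24 (SE 0.25, adjusted p = 0.00148), IZH1 by 0.92 (SE 0.18, adjusted p = 0.00141), IZH2 by 1.51 (SE 0.19, adjusted p = 6.1e-05) and IZH4 by 1.87 (SE 0.24, adjusted p = 5.73e-05) on the log2 scale, in the step with the widest change, passed by 46.1% of all genes and by 24.0% as lower. The ZRT1 call in this step was lost with the mean of its 4 probe sets (-0.54, adjusted p = 0.167), and the 3 sets other than the brightest were at -0.21, -0.47 and -0.22 without passing. IZH1 fell further by 0.74 on the log2 scale to 27.4 °C (SE 0.18, adjusted p = 0.0248), where 9.78% of all genes passed and 3.29% as lower. That last call was lost in 9 of 17 alternatives, among them each of the 3 that used the array numbered 3 at 27.4 °C. From 27.4 to 30 °C 0 members and 0.0354% of all genes passed, with IZH1 and IZH4 at an unadjusted p under 0.05.

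The 2 samples at 21 °C differed by the direction of the temperature, and the IZH genes differed with it. IZH4 read 250.6 and 349.8 with rising temperature, against 1313.4 and 1435.5 with falling temperature. It was 4.64-fold lower on the way up, a fall by 2.21 on the log2 scale (SE 0.24, adjusted p = 2.84e-05). IZH2 read 755.2 and 987.8 with rising temperature, against 2029.6 and 2222.1 with falling temperature (-1.30 ± 0.19, adjusted p = 0.000326). IZH1 read 1193.7 and 1148.0 with rising temperature, against 1779.7 and 2156.0 with falling temperature (-0.74 ± 0.18, adjusted p = 0.00720). All 3 genes were lower with rising temperature without overlap, but the call of IZH1 was lost without the second array of either group (adjusted p = 0.0772 and 0.0508).

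ZPS1 was the member that was higher on the way up, with 299.9 and 365.4 at 21 °C with rising temperature, against 179.4 and 229.4 with falling temperature (0.71 ± 0.25, adjusted p = 0.0488). Leaving out any 1 of these 4 arrays ended this call (adjusted p 0.0656 to 0.262). ZRT1 read 212.7 and 231.8 with rising temperature, against 318.1 and 383.2 with falling temperature. Its arrays did not overlap, but the comparison did not pass (-0.65 ± 0.25, adjusted p = 0.0598). These are values of its brightest probe set. The ZRT1 sets 2251_at, 2253_s_at and 2252_g_at were at -0.39, -0.11 and 0.030, without passing. In all, 1 member passed as higher and 3 as lower, while of all genes 33.9% passed, 15.2% as higher and 18.7% as lower.

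**Figure D4:**
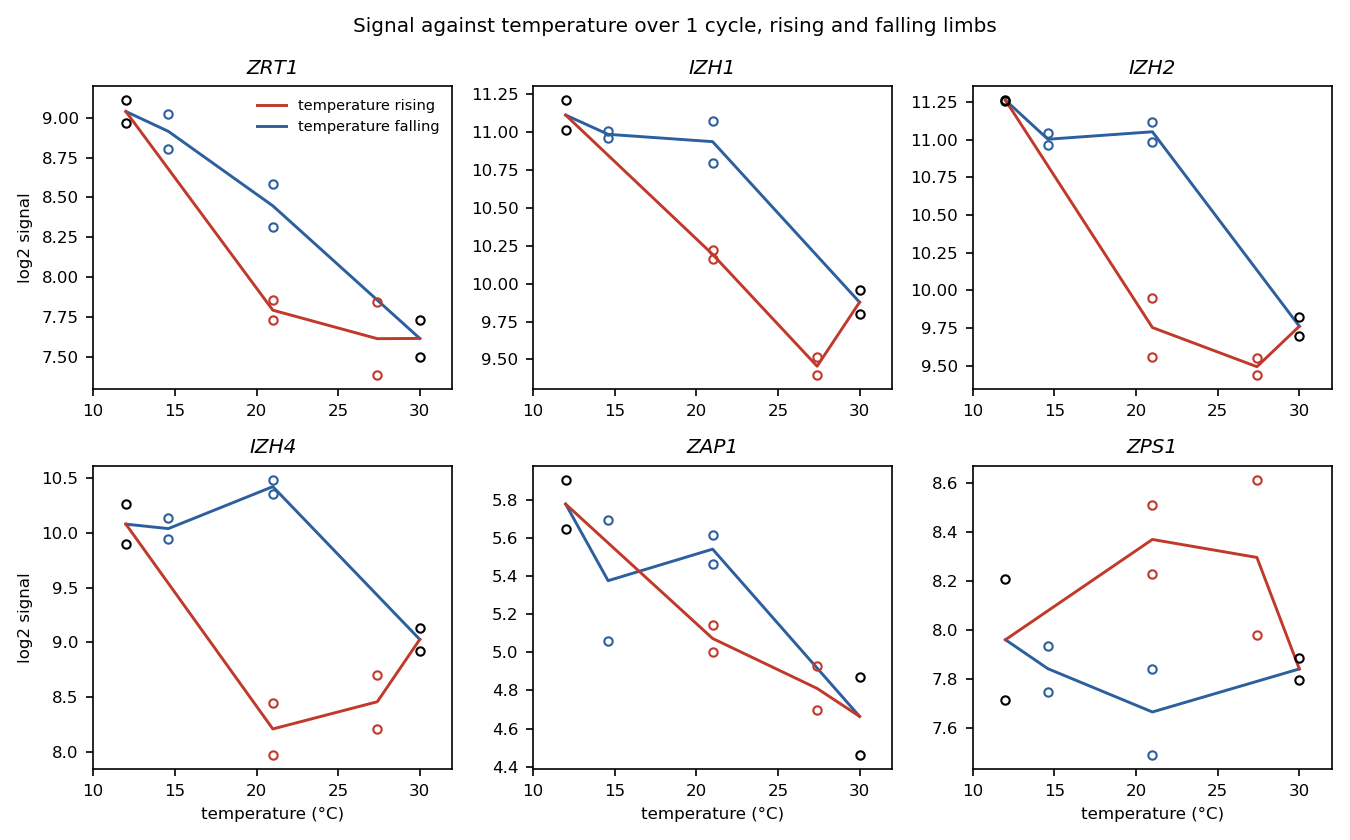
Log2 signal against temperature in °C over the cycle for 6 members. Circles are the 2 arrays of each point, black at 30 and 12 °C, and lines join the means with rising temperature in red and falling temperature in blue. At 21 °C the rising limb lies below the falling limb by 2.21 for IZH4, 1.30 for IZH2 and 0.74 for IZH1, and above it by 0.71 for ZPS1.

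A wave of 24 h was fitted to the 12 cycle arrays to time the members. ZAP1 (amplitude 0.48, adjusted p = 0.00950), ZRT1 (0.74, adjusted p = 0.000222), IZH1 (0.75, adjusted p = 0.000217), IZH2 (0.87, adjusted p = 8.58e-05) and IZH4 (1.06, adjusted p = 0.000167) passed, where 43.6% of all genes did. IZH4 had the earliest fitted peak, at hour 7.48, followed by IZH2 at hour 9.31, IZH1 at hour 9.89, ZRT1 at hour 10.4 and ZAP1 at hour 10.9. The highest measured mean lay later, at hour 12, for ZAP1, ZRT1, IZH1 and IZH2, and at hour 6 for IZH4. No sample was taken between hours 12 and 18, so the fitted hours do not show a peak before the coldest point. The fitted peak of ZPS1 lay at hour 17.4, and its wave did not pass (amplitude 0.36, adjusted p = 0.0538). With 6 sampled hours the differences between these peak times were not tested. A test of any difference among the 6 cycle points was passed by 48.7% of all genes and by ZRT1, IZH1, IZH2 and IZH4, while ZAP1 (adjusted p = 0.0517) and ZRT2 (adjusted p = 0.0614) missed it.

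Other genes reported as Zap1 targets moved in both directions. Of 13 such genes, 6 were higher at 12 than at 30 °C in the cycle, 2 were lower and 5 did not pass, and at steady state 3 were higher and 1 was lower. Of all genes 16.5% were higher and 16.3% lower in the cycle, and 9.97% were higher and 12.2% lower at steady state. MCD4, which encodes an enzyme of membrane anchor synthesis, read 1082.2 and 1534.7 at 12 °C in the cycle, against 305.1 and 268.7 at 30 °C in the cycle (2.17 ± 0.27, adjusted p = 0.000114). FET4, a low-affinity iron transporter that also takes up zinc, was 1.18 ± 0.28 higher in the cycle (adjusted p = 0.00740) and 1.41 ± 0.28 higher at steady state (adjusted p = 0.00487). DPP1, a lipid phosphatase of the vacuole membrane, was higher in both as well (1.17 ± 0.22 in the cycle and 1.34 ± 0.22 at steady state).

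ZRC1, the transporter that moves zinc into the vacuole, was higher in the cycle (0.75 ± 0.21, adjusted p = 0.0181) and not at steady state (-0.045 ± 0.21). The cell wall protein gene PST1 was higher in the cold of the cycle (0.90 ± 0.22, adjusted p = 0.00946), while at steady state it was at -0.50 without passing. Its difference between the effects passed (1.39 ± 0.32, adjusted p = 0.0149). YOR387C also counted among the 6, but its 4 arrays read between 0.8 and 10.7 around background, so no fold is given. VEL1, its near-identical copy, stayed under background on all arrays.

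The genes that were lower in the cold of the cycle were ATG41, which the files list as ICY2, and URA10. ATG41 read 275.6 and 192.4 at 12 °C in the cycle, against 1129.9 and 1357.2 at 30 °C in the cycle (-2.43 ± 0.25, adjusted p = 3.29e-05), and it was also lower at the 12 °C than at the 30 °C steady state (-0.91 ± 0.25, adjusted p = 0.0218). Its difference between the effects passed as well, with the opposite sign to that of PST1 (-1.52 ± 0.35, adjusted p = 0.0153). URA10, an enzyme of pyrimidine synthesis, fell by 0.77 on the log2 scale (SE 0.22, adjusted p = 0.0182). At 21 °C URA10 read 342.1 and 417.1 with rising temperature, against 37.6 and 47.1 with falling temperature, the opposite direction to IZH1, IZH2 and IZH4 (3.17 ± 0.22, adjusted p = 1.92e-06).

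**Figure D5:**
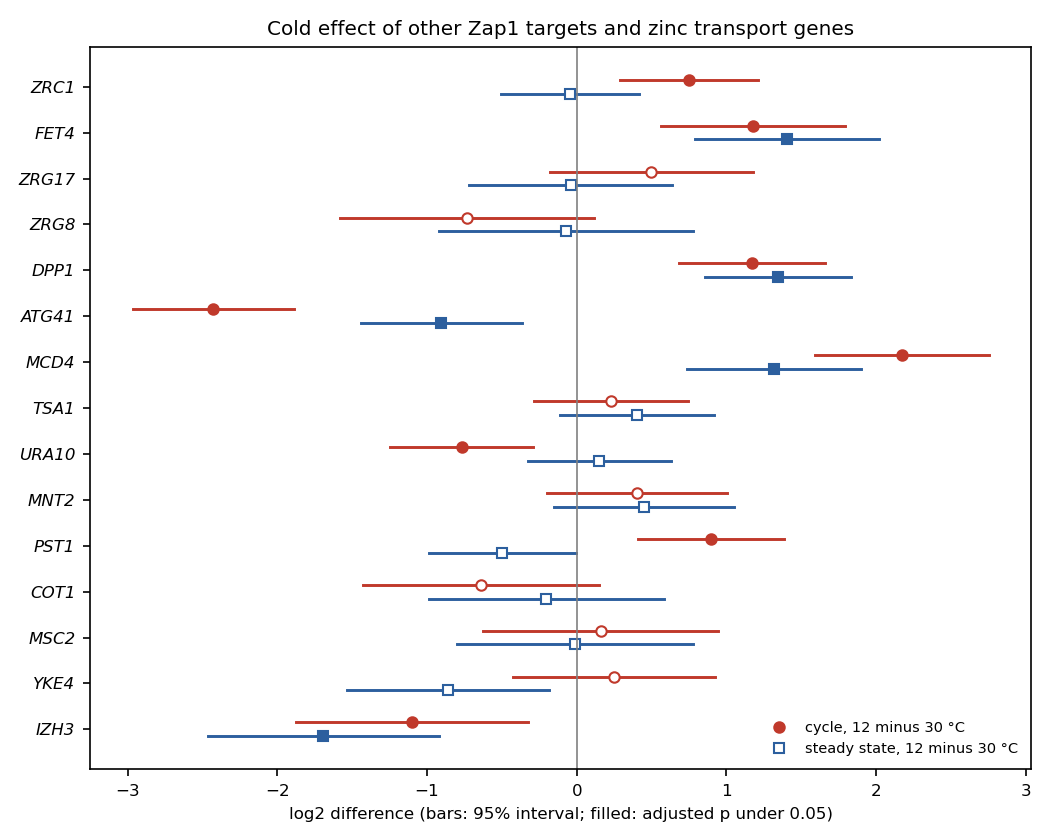
Log2 difference between 12 and 30 °C in the cycle (red circles) and between steady states (blue squares) for other reported Zap1 targets and zinc transport genes, with 95% intervals from the same limma model; filled symbols passed at an adjusted p under 0.05. MCD4, FET4 and DPP1 are higher in the cold in both settings, ATG41 and IZH3 are lower in both, and VEL1 and YOR387C are left out because they lie around or under background.

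Among 4 other zinc transport and zinc-related genes, COT1, MSC2, YKE4 and IZH3, the fourth IZH gene of yeast was the one that passed a cold comparison. IZH3 was lower at 12 than at 30 °C both in the cycle (-1.10 ± 0.35, adjusted p = 0.0327) and at steady state (-1.69 ± 0.35, adjusted p = 0.00611). Of all genes 16.3% were lower in the cycle and 12.2% at steady state. By the calls given here the 4 IZH genes had 3 patterns. IZH1 and IZH2 were higher in the cold in both settings, and IZH3 was lower in both. IZH4 was higher in the cycle and lower at steady state. The steady-state calls of IZH1 and IZH2 and the cycle call of IZH4 were lost in some alternatives, as described above. For IZH3 itself the alternatives were not examined. At 21 °C IZH3 too was lower with rising than with falling temperature (-1.55 ± 0.35, adjusted p = 0.00506).

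Of the 5 other alcohol dehydrogenase genes, ADH3 and ADH5 were lower at 12 than at 30 °C in the cycle, where ADH4 was higher. Their differences were -1.14 ± 0.19 (adjusted p = 0.000918) and -1.12 ± 0.37 (adjusted p = 0.0354). Of all genes 16.3% were lower in this comparison. ADH1, the main fermentative enzyme and itself a zinc protein, passed neither cold comparison (-0.16 ± 0.19 in the cycle and 0.41 ± 0.19 at steady state, adjusted p = 0.568 and 0.152).

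As a measure of likeness, the Pearson r of log2 signal over the 16 arrays was taken between members and with 3673 other genes above background whose group means spanned at least 1. The arrays share their groups and scaling, so these values describe the profiles and carry no test. Among the members IZH1 and IZH2 were closest (0.944), followed by ZRT1 and IZH2 (0.819), and ZPS1 stood apart from the other 8 (-0.394 to 0.233). ZAP1 reached 0.609 with ZRT1, 0.692 with IZH2 and 0.672 with ADH4. Outside the set, the gene most like IZH1 was ITR1 (0.967), the inositol transporter gene, followed by NHP6A and NHP6B.

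SHB17 (0.949), DBP2 and IMD4 were nearest to IZH2, and YHK8 (0.945), FAA4 and YGL039W to IZH4. The nearest genes of ZRT1 were UIP5 (0.928), MIG2 and EFM6, and those of ZAP1 were HCM1 (0.888), ACS2 and CKI1. RPS31 (0.899), RFA1 and APN1 came nearest to ZRT2, and MTC6 (0.883), RAP1 and YPP1 to ADH4. The best values of ZPS1 (0.799, with YFR018C, then DFP4 and HOF1) and ZRT3 (0.758, with MUK1, then MPS3 and MSN4) were the lowest of the 9.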

How the data were processed

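The authors deposited 1 intensity per probe set and array, linear and scaled before deposit. Per the submitters' processing notes the tool was RMA, but the values reach 0 and every array has a mean of 240.2 after trimming 2% at each end, so the exact steps are not given in the sources used here. RNA (200 ng) was amplified with a 3' kit, per the labels' protocols. The members and lists were chosen with earlier results of these data known.

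Values were floored at 1 and log2 was taken. Names came from the platform annotation, updated to the R64 reference (6504 of 9335 probe sets with a single gene, all matched, 328 with several, 2443 unnamed, 60 controls). The brightest probe set stood for a gene. Background was the 95th percentile of the means of 28 control sets. An array numbered 3 at 27.4 °C, where an extra analytical duplicate was taken, was left out of 17. limma 3.58.1 in R 4.3.3 (statmod 1.5.0) fitted 1 mean per group (8 residual degrees of freedom), with two-sided tests and Benjamini-Hochberg adjustment over all genes, and was tested on simulated data. Likeness was ranked as the 3 highest Pearson r per member, and listed genes were named where they passed a test, with FET4, ZRC1 and ADH1 in any case. Alternatives covered normalization, floor, dim genes, probe sets, variance model, array weights, the array numbered 3, the replicate number, a threshold of 0.01 and leaving out arrays. Sequences and coordinates were not used here.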

Additional observations from a re-analysis of the deposited data

Results flagged for a closer look

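The cold effect of IZH4 differed between the cycle and the steady states by 2.71 ± 0.34 on the log2 scale, tested as the difference itself (adjusted p = 0.000837). Of all genes 12.9% passed this test, and IZH4 was the only member that did. The gene rose by 1.05 at 12 against 30 °C in the cycle and fell by 1.66 at 12 against 30 °C at steady state, with no overlap of arrays in either pair. With 2 arrays in a group, single arrays that stand apart from their group could not be tested for.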

How the results depend on the processing

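No value that passed in the main setting or in an alternative had the opposite direction in the other. Of 2556 recomputed values 2439 kept their side of the threshold. These include the values of members and comparisons that had not passed in the main setting, so the share does not measure how firm the calls are. A call of the main setting was lost in 69 values, and a call was gained in 48. The call lost most often, IZH1 in the step to 27.4 °C, was lost in 9 of 17 alternatives. Of the 9 members, 4 passed between the steady states in the main setting, 2 with quantile normalization, 1 with only the groups compared in the fit, 1 at an adjusted p under 0.01, and 1 to 3 with an array left out. Between 12 and 30 °C in the cycle 6 passed, 3 with only the groups compared, and 3 to 6 with an array left out, the 3 without the second 12 °C array. The difference of the cold effects counted 1, and 2 with quantile normalization or a floor of 12, when IZH2 joined IZH4, and 1 in each fit without an array. At 12 °C the cycle against steady state counted 2, with 0 from only the groups compared, 1 at 0.01, and 1 to 2 without an array. At 30 °C it was 0 throughout. At 21 °C 4 members passed, 2 to 3 without an array. The 24-h wave counted 5, the test over cycle points 4, and the steps 8 calls. With only the groups compared in the limma fit the steps counted 5 calls, not all of them the same. The calls of IZH1, IZH2 and IZH4 in the first step and of IZH1 to 27.4 °C were lost there. ZAP1 was gained in the step from 12 to 21 °C (-0.71, adjusted p = 0.0434). The added comparison of cycle and steady-state means counted 2, 1 with the mean of probe sets, 0 at 0.01 and 0 to 2 without an array. For the other Zap1 targets 8 passed in the cycle, 2 with only the groups compared, 5 at 0.01 and 3 to 7 without an array. Fits of only the groups compared have 2 to 4 residual degrees of freedom. The cause of the other losses was not tested. In both cold comparisons, every fit with an array left out also passed fewer of all genes than the main setting, so the lower counts are not particular to the members.

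Array medians shift the level of a comparison. Median centring moved the median of all genes by 0.12 between steady states, where 730 genes were then higher and 567 lower, beside 564 and 692. For the difference of the cold effects it moved by -0.17 (268 and 476, beside 371 and 358), at 21 °C by 0.12 (1024 and 899, beside 860 and 1055), and in the step from 12 to 21 °C by 0.11 (1386 and 1204, beside 1246 and 1359). Between cycle and steady state at 30 °C, centring gave 23 higher and 31 lower, beside 19 and 49, and in the step to 27.4 °C 304 and 236, beside 367 and 186. With only the groups compared the counts over all genes were 782 beside 1855 of the main setting in the cold of the cycle, 685 beside 1256 between steady states, 343 beside 729 for the difference, 0 beside 1029 at 12 °C, 0 beside 68 at 30 °C, and 1 beside 631 and 1 beside 553 in the steps to 21 °C with falling temperature and to 27.4 °C. At 0.01 they were 1105, 561, 267, 353, 14, 222 and 202, with 1254 beside 1915 at 21 °C, 1446 beside 2466 for the wave and 1803 beside 2752 over the cycle points.

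The labels number replicates 1 and 2 in each group. Across genes, the difference between these arrays correlated between groups at -0.474 to 0.541 (28 pairs of groups, 9 over 0.1). With both signs present, this does not settle whether the numbers pair the samples. With the replicate block the counts were 4 between steady states, 6 in the cold of the cycle, 1 for the difference, 3 at 12 °C, 0 at 30 °C, 5 at 21 °C, 6 for the wave and 9 for the steps. Calls gained there were ZRT1 at 21 °C (adjusted p = 0.0490) and in the first step (0.0432), and ZPS1 at 12 °C (0.0329) and in the wave (0.0232).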

Other observations

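The array numbered 3 at 27.4 °C belongs to no comparison of the main setting and was used in alternatives only. It correlated at 0.976 and 0.971 with the arrays numbered 1 and 2 of that point, which correlated at 0.962 with each other, and no label tells which array of that point is the analytical duplicate. On it ZPS1 read 345.3, ZRT1 237.9, ZRT2 185.7, IZH2 521.9 and IZH1 1002.6. The IZH1 value lies outside the 732.5 and 673.1 of the other arrays there and the IZH2 value outside 751.0 and 692.9, and so did the values of all other members except ZPS1 and ADH4. ADH5 read 523.5 and 245.6 at 12 °C in the cycle, against 597.8 and 1016.7 at 30 °C in the cycle, and 1768.2 and 1805.7 at the 12 °C steady state, against 874.7 and 827.9 at the 30 °C steady state. Its difference between the cold effects was -2.19 ± 0.52 (adjusted p = 0.0176), the opposite sign to that of IZH4.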
